A study of Mus musculus with 2 samples.

Results

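Mirlet7b, Mirlet7c-1 and Mirlet7c-2 are the mouse hairpins that give the miRNAs let-7b and let-7c. They are 3 of the 2202 miRNA hairpins in the GENCODE M21 annotation. A read was counted when it was at least 18 nt long and lay in sense, without mismatch, in one of the 3. By this rule they held 1216706 reads of 110 distinct sequences in one library and 6804 reads of 111 distinct sequences in the other. Over all 2202 hairpins the libraries held 5934535 and 163902 such reads.

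The libraries are small RNA of mouse MSCs, mesenchymal stem cells, which are fibroblasts of the adult marrow, here of the C57BL/6 strain and immortalized. One carries Dicer f/f, alleles that the labels also call wild type, and is called f/f here. The other is Dicer -/- and is called null. The lines are monoclonal and each genotype has 1 library, so differences between clones and between genotypes cannot be told apart. No test and no replicate check were possible, and every interval given is an exact 95% interval of counting error only, since copies made by PCR are not independent molecules.

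A miRNA hairpin is freed from its primary transcript by Drosha, whose cuts set the 5′ end of the 5p arm and the 3′ end of the 3p arm. Dicer then cuts off the loop, which sets the 3′ end of the 5p arm and the 5′ end of the 3p arm. The let-7 family is known for repressing growth and fetal-type mRNAs and is abundant in differentiated cells. The precursors of several let-7 members are known to receive untemplated uridines at their 3′ end.

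The hairpins are shown first because every read below is placed on them. The sequences are those of RefSeq (GRCm38.p6), with both mature arms in capitals and the loop between them in lower case.
Mirlet7b: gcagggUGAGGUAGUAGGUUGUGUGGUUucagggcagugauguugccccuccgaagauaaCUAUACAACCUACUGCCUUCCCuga
Mirlet7c-1: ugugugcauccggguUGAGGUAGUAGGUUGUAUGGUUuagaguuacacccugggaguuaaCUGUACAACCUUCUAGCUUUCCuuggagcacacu
Mirlet7c-2: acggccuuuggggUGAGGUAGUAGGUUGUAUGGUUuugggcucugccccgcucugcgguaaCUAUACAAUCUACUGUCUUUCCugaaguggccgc

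All 3 lie on the plus strand in GRCm38. Mirlet7b (ENSMUSG00000065564.1) is at chr15:85707319-85707403 and Mirlet7c-2 (ENSMUSG00000065608.1) at chr15:85706603-85706697, with 621 nt between them, both in exons of the noncoding gene Lncppara. Mirlet7c-1 (ENSMUSG00000065557.3) is at chr16:77599657-77599750, within the noncoding gene Mir99ahg and outside its exons. The stretch between the mature arms is 32 nt in Mirlet7b, 23 nt in Mirlet7c-1 and 26 nt in Mirlet7c-2.

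The mature arms are shown with the seed, bases 2 to 8, in capitals, since the seed selects a miRNA's targets.
mmu-let-7b-5p: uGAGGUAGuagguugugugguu
mmu-let-7c-5p: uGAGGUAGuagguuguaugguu
mmu-let-7b-3p: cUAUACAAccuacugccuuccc
mmu-let-7c-2-3p: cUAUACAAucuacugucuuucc
mmu-let-7c-1-3p: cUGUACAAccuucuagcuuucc

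Both let-7c hairpins give the same 22-nt 5p arm, and let-7b-5p differs from it by a single base, G17A, with let-7b's base first and positions counted from the 5′ end of the mature arm. The 5p seed GAGGUAG is shared by 11 RefSeq mature miRNAs. The let-7b and let-7c-2 3p arms share the seed UAUACAA with let-7a-1-3p, let-7f-1-3p and miR-98-3p. The let-7c-1 3p arm alone has UGUACAA.

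The f/f library held 9943989 reads and the null library 6291599, of 5 to 36 nt, the longest length in the files. Levels are in CPM, counts per 1000000 reads of the library, where a count of 0 allows up to 0.302 in f/f and 0.477 in null. Fragments of the mRNA of Dicer1, the targeted gene, numbered 25 in f/f and 54 in null, reads shared with other genes included. The labels do not name the deleted exon, and such fragments are no check of the genotype. Of miRNAs usual in fibroblasts, miR-145a-5p stood at 36058 CPM in f/f and at 56.6 CPM in null. No cell type was named from it. The mRNA markers of MSCs were not measured. Reads of small nucleolar and small nuclear RNAs (snoRNA, snRNA) were 106613 in f/f and 290021 in null, against 6446558 and 1208961 reads in sense to any annotated transcript. A level in CPM therefore differs from a level per transcript read or per snoRNA and snRNA read, and the summed levels are given on all 3 scales.

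The 3 hairpins together stood at 122356 CPM in f/f (122139 to 122574) and at 1081 CPM in null (1056 to 1107). This is a level 113-fold lower in null (110 to 116), or -6.82 on the log2 scale. The log2 ratio was -5.07 per transcript read and -8.93 per snoRNA and snRNA read. Of all 2202 hairpins' species with at least 100 f/f reads, a species being the reads of 1 arm of hairpins with the same name, 265 of 296 (89.5%) were more than 2-fold lower. A 10-fold limit was passed by 75.3% of the 296. All 5 such species of the 3 hairpins were more than 10-fold lower. Antisense reads were 7 in f/f and 1 in null.

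By f/f reads, let-7c-5p ranked 1 and let-7b-5p ranked 3 among all miRNA species. There were 759423 let-7c-5p reads in f/f and 3762 in null, 76370 and 598 CPM. The level was 128-fold lower in null (124 to 132). let-7b-5p had 447438 reads in f/f and 2861 in null, 44996 and 455 CPM, a 98.9-fold lower level (95.4 to 103). Reads too short to tell let-7c from let-7a on this arm were counted apart: 6288 in f/f and 68 in null, 58.5-fold lower (46.1 to 75.4).

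The size of the difference turned on read length. Among reads of 18 to 23 nt, the size of mature miRNAs, the 3 hairpins were 342-fold lower in null (328 to 357). let-7b-5p of this length was 264-fold lower (248 to 280), with 447235 and 1073 reads, and let-7c-5p was 452-fold lower (425 to 480), with 758972 and 1063 reads. In this window 120 of 284 species (42.3%) were more than 100-fold lower. A null count of 0 was set to 3 here, so species with 0 null reads and few f/f reads could not pass this limit. For example, miR-335-3p with 0 null reads was put at 52.9-fold. The share is thus held down by depth. The exact 22-nt mature sequences differed by more than their arms as a whole. That of let-7b-5p had 361351 reads in f/f and 261 in null, 876-fold lower (776 to 993). That of let-7c-5p had 680547 reads in f/f and 265 in null, 1625-fold lower (1441 to 1840). The 2 mature sequences, apart in f/f, were thus nearly equal in null.

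Reads of 24 nt or longer went the other way. The 3 hairpins gave 672 of them in f/f and 4556 in null, 67.6 and 724 CPM, 10.7-fold higher in null (9.88 to 11.6). let-7b-5p gave 203 in f/f and 1788 in null, 13.9-fold higher (12.03 to 16.2), and let-7c-5p gave 451 and 2699, 9.46-fold higher (8.56 to 10.5). Of the 112 species with at least 20 such f/f reads, 34 (30.4%) were more than 2-fold higher. Their median log2 ratio was -2.33, against 3.80 for let-7b-5p and 3.24 for let-7c-5p, which ranked 13 and 18 from the top. The limit of 20 leaves out species whose reads of this length were rarer in f/f, whatever their null count. The share, median and ranks therefore hold only among the 112. From 25 nt on, the 3 hairpins gave 143 reads in f/f and 3482 in null, 38.5-fold higher (32.6 to 45.8). By this limit let-7b-5p was 21.05-fold higher (16.9 to 26.4) and let-7c-5p, with 39 f/f reads, 91.99-fold higher (67.1 to 130), so the order of the 2 turned. For the 3 hairpins the reads of 24 nt or longer were 36.2-fold higher per transcript read and 2.49-fold higher per snoRNA and snRNA read.

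**Figure D1:**
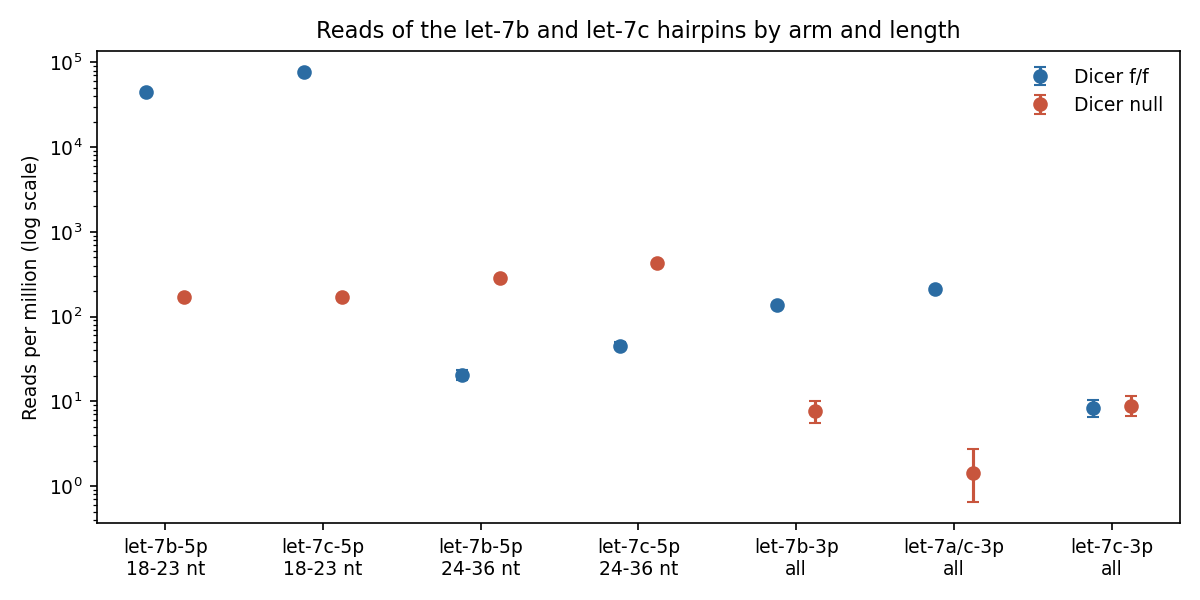
Level (CPM, log scale) of each arm and length class of the 3 hairpins in the f/f (blue) and null (red) library, with exact 95% counting intervals, 1 library each. Reads of 18 to 23 nt are lower in null for let-7b-5p and let-7c-5p, reads of 24 to 36 nt are higher, and the let-7c-3p points overlap.

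This direction depended on counting only templated bases. With reads that carry untemplated 3′ bases included, reads whose templated part was at least 24 nt numbered 941 in f/f and 5762 in null, 9.68-fold higher (9.03 to 10.4). With the length of the whole read as the limit, tail included, there were 67049 in f/f and 6124 in null, 6.93-fold lower in null (6.75 to 7.11). The f/f count then holds mature 22-nt reads with an added tail, described below.

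Within each library the lengths were far apart. Reads of 22 nt were 85.7% of the 3 hairpins' reads in f/f (85.67 to 85.79) and 8.16% in null (7.52 to 8.83). Reads of 24 nt or longer were 0.0552% in f/f (0.0511 to 0.0596) and 67.0% in null (65.8 to 68.1). For let-7b-5p the commonest length was 22 nt in f/f, with 80.8% of reads, and 24 nt in null, with 21.5%. For let-7c-5p it was 22 nt in f/f, with 89.6%, and 26 nt in null, with 22.5%. The longer share in null was lower for let-7b-5p, 62.5% (60.7 to 64.3), than for let-7c-5p, 71.7% (70.3 to 73.2), and these intervals do not overlap. Both lay below the median of 77.3% (quartiles 55.2 to 88.1) over the 91 species with at least 100 null reads. Among these, let-7b-5p ranked 62 and let-7c-5p 53 from the top.

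**Figure D2:**
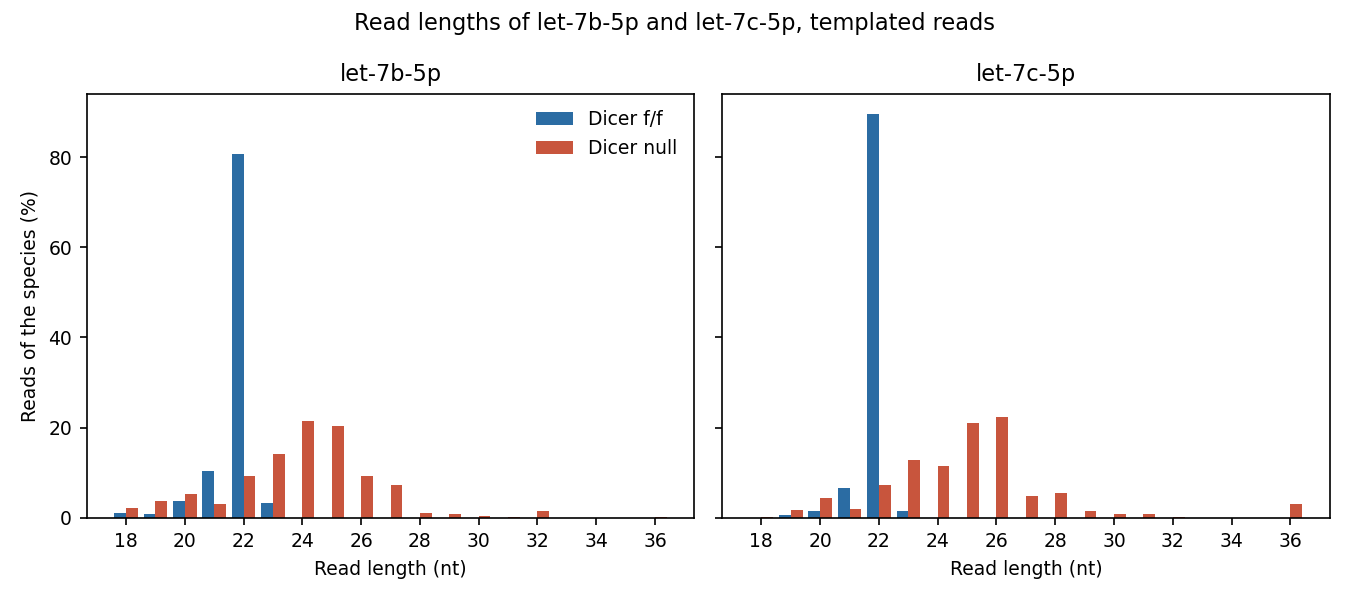
Percent of the templated reads of let-7b-5p (left) and let-7c-5p (right) at each length from 18 to 36 nt, in the f/f (blue) and null (red) library. A single 22-nt bar holds 80.8% and 89.6% of f/f reads, while null reads spread over 23 to 28 nt, with a small bar at 36 nt for let-7c-5p.

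The 5′ end, unlike the 3′ end, was nearly the same in both libraries. Of all 5p reads, 98.9% in f/f and 98.2% in null began at the mature 5p start. Reads ending at position 22, the last mature base, were 86.8% in f/f (86.76 to 86.88) and 7.86% in null (7.23 to 8.53). The difference between the libraries thus lay at the end that borders the loop.

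let-7b-5p and let-7c-5p differed in their f/f ends as well. A start 1 nt downstream was found in 0.425% of let-7b-5p reads (0.406 to 0.444) and 1.19% of let-7c-5p reads (1.16 to 1.21). Of the latter, the commonest form is the 21-nt sequence gaggtagtaggttgtatggtt, with 8211 reads in f/f and 0 in null. It starts at the second base of the mature arm, so its bases 2 to 8 differ from the let-7 seed. Both mature ends were present in 80.8% of let-7b-5p and 89.6% of let-7c-5p reads. let-7b-5p had more shortened reads: those of 20 nt were 3.70% (3.64 to 3.75) against 1.46% for let-7c-5p (1.43 to 1.49).

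Reads that run from the mature 5p start into the loop tell the hairpins apart, since the loops differ. They are printed as read, with T for U and with the bases past position 22 in capitals, because these bases carry the identity of the hairpin. Each is the commonest null read of at least 24 nt for Mirlet7b or Mirlet7c-2, beside the mature forms.
let-7b mature: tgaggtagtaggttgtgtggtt
Mirlet7b to position 24: tgaggtagtaggttgtgtggttTC
Mirlet7b to position 25: tgaggtagtaggttgtgtggttTCA
let-7c mature: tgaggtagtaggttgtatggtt
Mirlet7c-2 to position 25: tgaggtagtaggttgtatggttTTG
Mirlet7c-2 to position 26: tgaggtagtaggttgtatggttTTGG

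The Mirlet7b read to position 24 was found 113 times in f/f and 615 times in null, and that to position 25 was found 32 and 582 times. The Mirlet7c-2 read to position 25 was found 11 times in f/f and 540 times in null, and that to position 26 was found 6 and 674 times. The read to position 23, which cannot tell the let-7c copies apart, was more frequent in f/f for both miRNAs: 14426 against 399 reads for let-7b and 12158 against 484 for let-7c. For Mirlet7b and Mirlet7c-2, null reads outnumbered f/f reads from position 24 on. For Mirlet7c-1 this held from position 25, with 6 f/f and 233 null reads, and not at position 24, with 200 and 114.

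Taken from the mature start and 24 nt or longer, Mirlet7b gave 178 reads in f/f and 1778 in null, 15.8-fold higher (13.5 to 18.5). Mirlet7c-2 gave 220 and 1829, 13.1-fold higher (11.4 to 15.2). Mirlet7c-1 gave 213 and 813, 6.03-fold higher (5.18 to 7.05). Mirlet7c-2 held 50.8% of the let-7c reads that tell the copies apart in f/f (45.99 to 55.6) and 69.2% in null (67.4 to 71.0).

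For the let-7c copies these values rest on position 24, where 200 of the 213 and 196 of the 220 f/f reads end. The genome has A there in Mirlet7c-1 and T in Mirlet7c-2, so a read to position 23 with an untemplated A or T cannot be told from a templated read to position 24. From 25 nt on, Mirlet7c-1 gave 13 reads in f/f and 699 in null, 84.98-fold higher (49.4 to 160). Mirlet7c-2 gave 24 and 1523, 100.3-fold higher (67.1 to 157), and these intervals overlap. The share of Mirlet7c-2 was then 64.9% in f/f (47.5 to 79.8, 37 reads) and 68.5% in null (66.6 to 70.5), with no difference beyond counting error. Mirlet7b, where the genome has C at position 24, gave 65 and 1163 reads from 25 nt on, 28.3-fold higher (22.02 to 36.9).

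The 3 hairpins also stopped at different bases in null. The commonest end was position 24 for Mirlet7b (615 reads), 25 for Mirlet7c-1 (233 reads) and 26 for Mirlet7c-2 (674 reads). In f/f it was 24 for each, with 113, 200 and 196 reads. Mirlet7c-1 alone had a further peak at position 28, with 131 null reads against 31 for Mirlet7b and 75 for Mirlet7c-2. Mirlet7b had one at position 32, with 45 null reads against 8 for Mirlet7c-1 and 0 for Mirlet7c-2. Untailed reads of 33 to 35 nt were not found for any of them in either library. However, 28 null reads of Mirlet7c-2 were templated to position 34 and ended in TG at 36 nt. Whether that TG belonged to the RNA was not tested, so the missing lengths do not show that no RNA ended there.

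Fully templated reads of 36 nt, where the sequencing ended, come from RNAs at least that long if their last bases belong to the RNA. Whether they do was not tested. Those from the mature 5p start end in TG in Mirlet7b and in T in Mirlet7c-1, where such added bases would pass as templated. Fully templated 36-nt reads from the mature 5p start numbered 1 in f/f and 109 in null: 3 of Mirlet7b, 27 of Mirlet7c-1 and 79 of Mirlet7c-2. With any start they numbered 1 in f/f and 128 in null. The whole stretch from the 5p start to the 3p end is 76, 67 and 70 nt in these hairpins, and the RNA was size-selected at 15 to 50 nt, so full precursors are outside what these libraries hold.

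**Figure D3:**
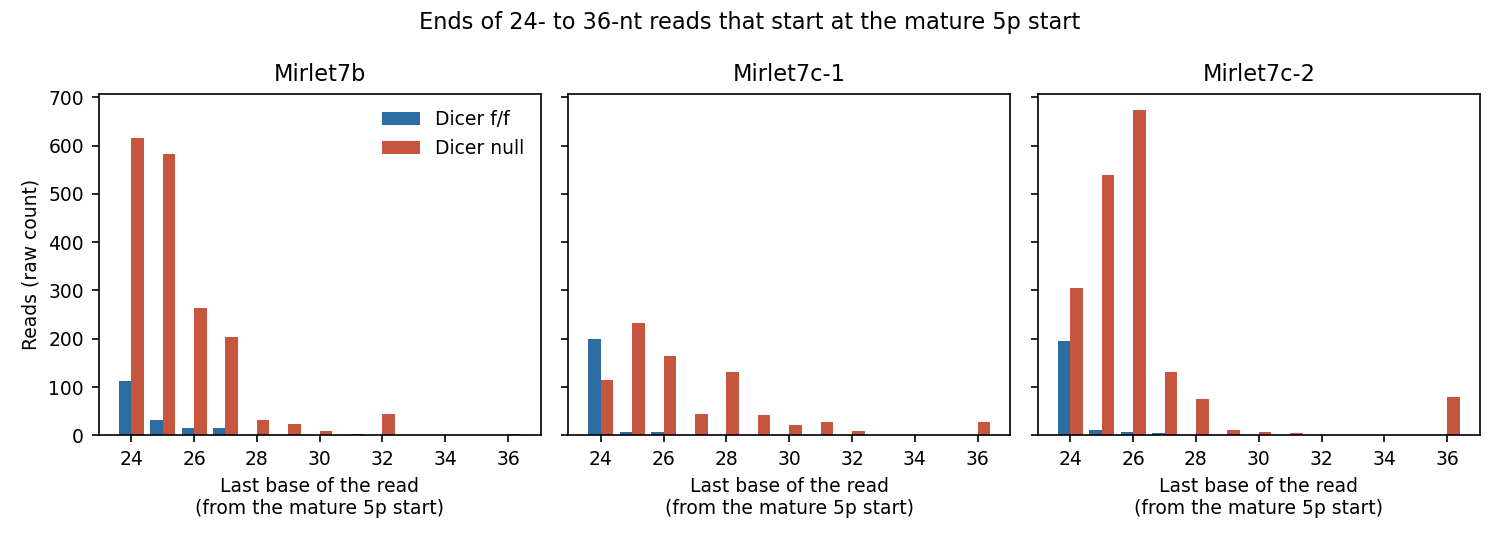
Raw count of reads of 24 to 36 nt that begin at the mature 5p start, by the position of their last base, for Mirlet7b, Mirlet7c-1 and Mirlet7c-2 in the f/f (blue) and null (red) library. Null reads peak at positions 24, 25 and 26 in turn, and bars at 36 hold 27 reads of Mirlet7c-1 and 79 of Mirlet7c-2.

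Loops were found as free fragments in f/f. Reads beginning at position 23, the first base after the mature 5p arm, numbered 60 in f/f (30 of Mirlet7b and 15 of each let-7c hairpin) and 4 in null. Of these, 24 f/f reads spanned a loop from end to end, with no base of either arm, and no null read did. They are printed since both ends abut the mature arms.
Mirlet7c-1 loop: tagagttacaccctgggagttaa
Mirlet7c-2 loop: ttgggctctgccccgctctgcggtaa
The first had 14 f/f reads and the second 10. For Mirlet7b, no read spanned the 32-nt loop. Null reads that began at position 19 or later and held fewer than 10 bases of the 3p arm numbered 32 in all.

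The 3p arm held few reads in both libraries: 3557 in f/f and 113 in null, so that the 5p arm took 99.7% and 98.3%. let-7b-3p stood at 138 CPM in f/f against 7.63 CPM in null, from 1370 and 48 reads, 18.1-fold lower (13.5 to 24.6). The 3p reads shared by Mirlet7c-2 and Mirlet7a-1 numbered 2105 in f/f and 9 in null, 148-fold lower (77.8 to 324). Reads past the midpoint of a let-7c hairpin alone, 3p arm and loop together, were 82 in f/f and 56 in null, a ratio of 1.08 (0.754 to 1.53), so no difference was detectable at this depth.

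The 3p reads of the libraries did not begin at the same base. At the mature 3p start began 97.4% of 1366 let-7b-3p reads in f/f (96.4 to 98.1) and 0 of 46 in null, which allows up to 7.71%. In null 42 of the 46 (91.3%) began upstream of it. For let-7c-1-3p, 48 of 57 reads began at the mature start in f/f, whereas in null 0 of 32 did and all 32 began upstream. For the 3p arm shared by Mirlet7c-2 and Mirlet7a-1 the counts were 2068 of 2105 in f/f and 0 of 13 in null. These 13 are 9 shared reads and 4 reads of Mirlet7c-2 alone.

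The commonest untailed null reads of let-7c-1-3p and let-7b-3p show the shift, with the commonest untailed f/f read beside each.
let-7c-1-3p in f/f: ctgtacaaccttctagctttcc
let-7c-1-3p in null: agttaactgtacaaccttctagct
let-7b-3p in f/f: ctatacaacctactgccttc
let-7b-3p in null: agataactatacaacctactgc
The null let-7c-1-3p form began at position 40, in the loop, and had 20 reads in null and 0 in f/f. Its f/f counterpart began at position 46 and had 23 reads in f/f and 0 in null. The null let-7b-3p form began at position 49 against 55 in f/f, with 8 null and 0 f/f reads, and its f/f counterpart had 774 f/f and 0 null reads. The 3′ ends of untailed reads, away from the loop, differed as well for let-7b-3p and let-7c-1-3p. Untailed reads of let-7b-3p ending 2 nt short of the mature end were 58.2% in f/f (55.5 to 60.8) and 30.4% in null (17.7 to 45.8). Tailed reads, left out of these shares, were 58.9% of the f/f let-7b-3p reads from the mature start. For let-7c-1-3p, 27 of 57 reads ended at the mature end in f/f and 1 of 32 in null. For the arm shared by Mirlet7c-2 and Mirlet7a-1 the shares were 43.1% in f/f (41.0 to 45.2) and 69.2% of 13 reads in null (38.6 to 90.9). These intervals overlap. Of the 13, 4 were 36-nt reads of Mirlet7c-2 alone, which ended at the mature end. Of the 9 shared null reads, 5 ended there.

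Untemplated bases at the 3′ end were common on both arms. A tail is the rest of a read after its longest templated stretch of at least 18 nt. On the 5p arm 13.6% of reads had one in f/f (13.5 to 13.7) and 20.8% in null (19.9 to 21.7). Leaving out reads that look like a single substitution gave 12.8% and 19.3%. The 5 commonest tails were A, AA, AT, AAA and AG in f/f and A, T, AA, AT and C in null.

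After the mature end, let-7b-5p carried adenine more often than let-7c-5p. Both commonest tailed reads are printed with the tail in capitals.
let-7b-5p with A: tgaggtagtaggttgtgtggttA
let-7c-5p with A: tgaggtagtaggttgtatggttA
The first had 47480 reads in f/f and 18 in null, and the second 39900 in f/f and 1 in null. Of let-7b-5p reads templated to position 22, 20.2% in f/f (20.1 to 20.3) had a tail that began with A, and 6.70% of let-7c-5p reads did (6.65 to 6.76). Over the 37 5p species of 10000 or more f/f reads whose next genomic base is not A, the median was 6.91%, with 2 species above let-7b-5p and 20 above let-7c-5p. Longer runs differed too: AA followed 4.49% of let-7b-5p reads and 0.714% of let-7c-5p reads. In null the shares were 15.5% of 317 let-7b-5p reads (11.7 to 19.9) and 0.375% of 267 let-7c-5p reads (0.00948 to 2.07). The null interval of let-7c-5p lies below its f/f share, whereas that of let-7b-5p ends just under its own.

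Among the other let-7 5p arms in f/f, let-7i had an A tail in 33.8% of these reads and let-7g in 13.1%. let-7a, let-7d, let-7e and let-7f lay between 6.91% and 9.60%. let-7c-5p was thus the lowest of the 8 and let-7b-5p was exceeded only by let-7i.

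A uridine after position 22 cannot be seen, because the genome continues with T in all 3 hairpins. A and T tails were therefore set beside each other only for 1-nt tails past position 23 where the genome has C or G. There A made up 45.4% of 1913 tails in f/f (43.2 to 47.7) and 47.5% of 824 in null (44.0 to 50.9), and T 50.4% and 50.5%. These sums mix positions, since 786 A and 917 T tails of f/f follow let-7b position 23. Of let-7b-5p reads templated to that position, 4.29% had a tail of A in f/f (3.998 to 4.59) and 13.9% in null (11.3 to 16.95). A tail of T was on 5.001% in f/f (4.69 to 5.33) and 2.99% in null (1.78 to 4.68). At this base A was thus more frequent in null, beyond counting error. T was less frequent, but this rests on 18 null reads and on intervals that barely miss each other. Reads templated to position 23 may include mature 22-nt reads with an added uridine, which cannot be seen. Whether the 2 libraries hold like RNAs in these reads was not tested.

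Tails also sat on reads that ran into the loop. The commonest tailed null sequences were let-7b to position 26 with T (94 reads) and Mirlet7c-2 to position 25 with A (93 reads), printed with the tail in capitals.
Mirlet7b with T: tgaggtagtaggttgtgtggtttcagT
Mirlet7c-2 with A: tgaggtagtaggttgtatggttttgA
In f/f they had 1 and 0 reads. Of null reads templated to position 24 or further and under 36 nt, 18.4% were tailed (17.4 to 19.5). Of null reads templated to positions 18 to 23, 18.1% were tailed (16.6 to 19.6), and these intervals overlap. In f/f the same shares were 27.98% of 847 long reads (24.98 to 31.1) and 12.9% of short reads, whose intervals do not overlap.

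The 3p arm of let-7b ended mostly in uridine that the genome does not encode. The forms from the mature start are printed with the last base of the 22-nt forms in capitals, since the encoded base there is C.
let-7b-3p to position 74: ctatacaacctactgccttc
let-7b-3p to position 75: ctatacaacctactgccttcc
let-7b-3p with untemplated T: ctatacaacctactgccttccT
let-7b-3p with templated C: ctatacaacctactgccttccC
In f/f they had 774, 525, 1184 and 3 reads, and none had a read in null. The untemplated form was 36.6% of all f/f reads from the mature start (34.9 to 38.3) and the annotated mature form was 0.0926% (0.0191 to 0.271). A replaced the encoded base in 73 reads and G in 2. Over the 71 3p species with at least 1000 f/f reads, tails beginning with T had a median share of 7.27%, and let-7b-3p at 54.5% was exceeded by 3. The arm shared by Mirlet7c-2 and Mirlet7a-1 stood at 47.0% and was exceeded by 5.

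**Figure D4:**
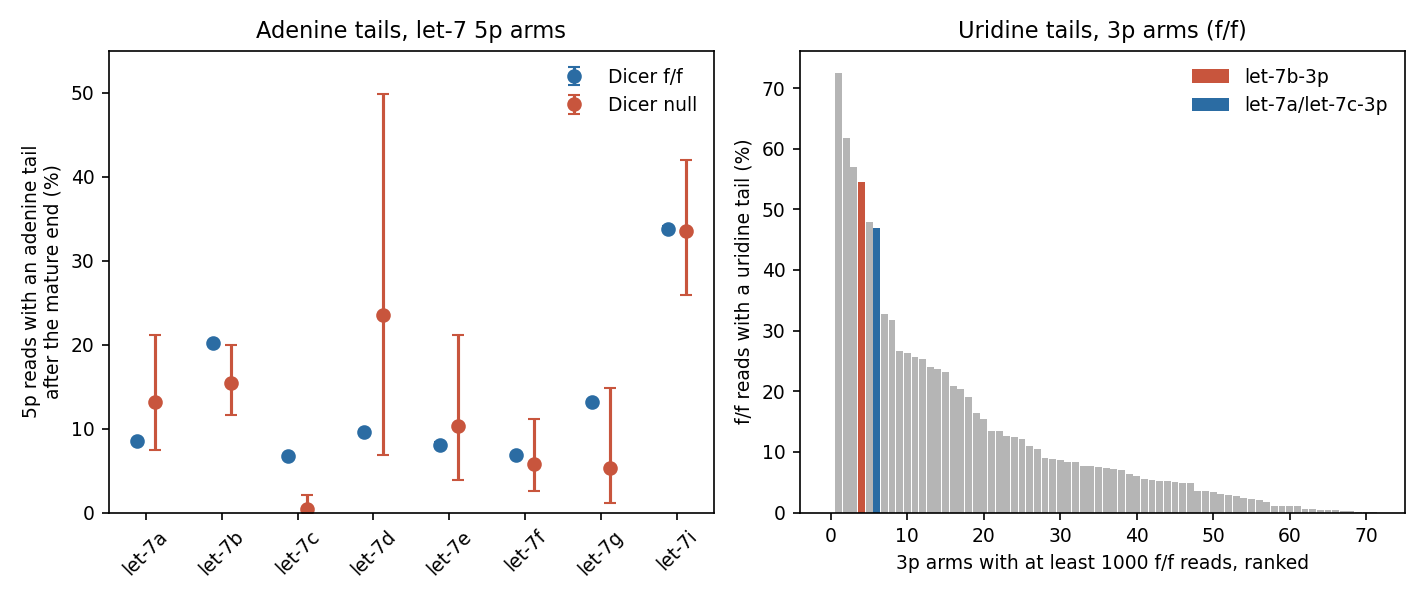
Left: percent of 5p reads templated to the mature end that carry a tail beginning with A, for 8 let-7 miRNAs in the f/f (blue) and null (red) library with exact 95% counting intervals. Right: percent of f/f reads with a tail beginning with T (uridine) for 71 3p arms in order, where let-7b-3p (54.5%) is the fourth and the arm shared by let-7a and let-7c (47.0%) the sixth.

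let-7b-5p and let-7c-5p did not keep their ratio. The ratio of let-7b-5p to let-7c-5p reads was 0.589 in f/f (0.587 to 0.591) and 0.761 in null (0.724 to 0.799). Within 18 to 23 nt it was 0.589 in f/f and 1.01 in null, where 1073 and 1063 reads do not differ beyond counting error. The let-7c-5p counts leave out reads too short to tell from let-7a, 6288 in f/f and 68 in null. As this ratio is taken within a library, no scaling between libraries enters it.

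The other let-7 5p arms were set beside these as the nearest relatives. Over all lengths the other 7 were 15.3-fold to 138-fold lower in null, with a median of 53.3-fold. let-7c-5p, 128-fold lower, was exceeded by let-7d-5p alone, and let-7b-5p came next. At 24 nt or longer the 7 were 6.05-fold to 138-fold higher, with a median of 32.3-fold, and 5 of them exceeded let-7b-5p and 6 let-7c-5p. From 25 nt on, where f/f reads of the 7 number 1 to 21 each, their values ran from 33.5-fold for let-7d-5p to 142-fold for let-7e-5p. let-7c-5p, at 91.99-fold, then lay within this range and let-7b-5p, at 21.05-fold, below it, although its interval overlaps those of let-7d-5p (14.95 to 92.9) and miR-98-5p (13.5 to 3183). The share of null reads of at least 24 nt was lowest for let-7b-5p and let-7c-5p among the 9: the others ran from 77.3% to 86.1%. The interval of let-7d-5p (71.6 to 82.3, 251 reads) overlaps that of let-7c-5p, and none of the 7 overlaps that of let-7b-5p.

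**Figure D5:**
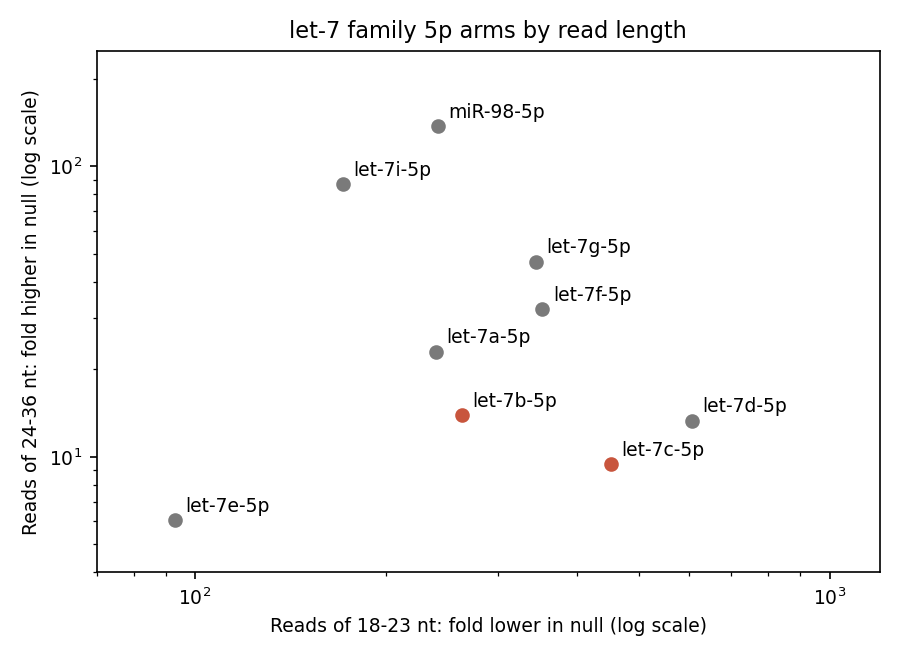
For 9 let-7 family 5p arms, the fold by which reads of 18 to 23 nt were lower in null (x axis, log scale) against the fold by which reads of 24 to 36 nt were higher (y axis, log scale). let-7b-5p (13.9-fold higher) and let-7c-5p (9.46-fold higher), in red, lie below 5 and 6 of the other 7 in grey.

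The hairpins' surroundings did not follow one course. Reads of Lncppara outside the hairpins, host of Mirlet7b and Mirlet7c-2, numbered 58 in f/f and 186 in null, 5.83 and 29.6 CPM. Those of Mir99ahg numbered 13 and 35, 1.31 and 5.56 CPM. On the CPM scale neither host was lower in null, reads shared with other genes included. The other scales were not applied to the hosts, and snoRNA and snRNA reads were also more numerous in null, 290021 against 106613. Mir99a starts 721 nt upstream of Mirlet7c-1, and miR-99a-5p went from 19343 to 821 reads, 14.9-fold lower. Mir125b-2 starts 46616 nt downstream, and miR-125b-5p, which a further hairpin also gives, was 92.7-fold lower.

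By the null to f/f ratio alone, 64 species with at least 10000 f/f reads could be ordered by likeness, over 2 libraries. The nearest to let-7b-5p was miR-195a-5p (98.8-fold lower), followed by miR-125b-5p (92.7-fold lower), miR-125a-5p (89.1-fold lower), miR-30d-5p (82.1-fold lower) and miR-214-3p (122-fold lower). The nearest to let-7c-5p was miR-214-3p, followed by miR-17-5p (136-fold lower), let-7d-5p (138-fold lower), miR-191-5p (138-fold lower) and miR-34c-5p (140-fold lower). Their shares of null reads of at least 24 nt ran from 42.0% for miR-17-5p to 91.0% for miR-34c-5p, so species with like ratios differed in read length.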

How the data were processed

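The authors deposited raw counts, 1 file per library, which list each distinct read sequence with the number of times it was seen. Per the labels' protocols, RNA of 15 to 50 nt was cut from a 15% gel after growth in 10% serum. The genome build was mm9, per the submitters' processing notes; the trimming tool is not given in the sources used here.

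Reads were matched to GENCODE M21 hairpins and transcripts (GRCm38), in sense. Positions count from the mature 5p start, and the arm was set by the hairpin midpoint. Reads shared with another hairpin name formed species of their own. Tails followed the longest templated stretch over all hairpins: 9100 f/f and 45 null tailed reads tied with another hairpin and were left out. A substitution-like tail has 1 mismatch and then continues as the hairpin. CPM is per 1000000 reads of a file. Intervals are Clopper-Pearson (shares), Poisson (counts) and conditional (ratios), and a count of 0 was read as up to 3 counts. Groups came from the genotype label.

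Named were all arm species of the 3 hairpins, the leading 5 sequences and tails, the let-7 family, neighbours within 100 kb and the 5 species nearest in ratio. The members and lists were chosen with earlier results of these data known, while the forms of let-7b-3p, the loops, the A and T comparison, the 25-nt limit and Dicer1 were added after seeing values. The alternatives varied the denominator, length window, matching rule, tail rule and copy number. Python 3.11.15, numpy 2.4.6, scipy 1.17.1 and matplotlib 3.10.9 were used, and the matching was tested on simulated data.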

Additional observations from a re-analysis of the deposited data

How the results depend on the processing

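No paired analysis was possible because each genotype has 1 library. The log2 level of the 3 hairpins (-6.82) was -6.69 per read of 18 nt or more, -5.07 per transcript read, -8.93 per snoRNA and snRNA read, -8.42 at 18 to 23 nt and -6.70 with tailed reads. For reads of 24 nt or longer (3.42) the log2 values in that order of scales were 3.56, 5.18 and 1.32, then 3.27 with tailed reads by templated length and 5.27 from 25 nt. With tailed reads by whole length it turned to -2.79, since mature reads with tails pass the limit. The share of these reads was 4.76% in f/f and 71.3% in null with tails, and 0.0118% and 51.2% from 25 nt. Without reads shared with other hairpins, the f/f share on the 5p arm was 99.88% and that ending at position 22 was 87.3%. The null share ending there was 23.9% at 18 to 23 nt, where longer reads are left out. Tailed 5p reads were 6.17% and 7.50% (f/f, null) for tails of at least 2 nt, 12.99% and 19.7% with 20 nt templated, and 12.8% and 19.3% without substitution-like reads. From sequences seen at least 2 times, the null share was 19.7%. The null ratio of let-7b-5p to let-7c-5p was 1.01 at 18 to 23 nt. With 1000 f/f reads as the minimum, 151 species were more than 2-fold lower in place of 265, since fewer entered. The alternatives for reads of 24 nt or longer against f/f, and the one on substitution-like reads, were chosen after seeing the data. Depth limits the 3p arms, with 113 null reads in all, and the null tail shares after position 22.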
